A study of Glycine soja with 14 samples.

Results

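Heat shock proteins are molecular chaperones: they bind unfolded or aggregating proteins and keep them soluble, refold them or hand them on for degradation. Their genes are switched on by heat stress factors, transcription factors that HSP70 and HSP90 hold inactive in unstressed cells and that are set free when misfolded proteins occupy these chaperones. In plants, members of the family are also active in growing tissue without stress and respond to drought, salt and oxidative stress.

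The probe sets described here measure heat shock proteins and heat stress factors in roots of wild soybean (Glycine soja). They are 48 of the 37593 soybean probe sets of the Affymetrix GeneChip Soybean Genome Array. Of these, 33 carry a single gene symbol that starts with HSP or HSF in the array annotation, and 15 more are described as a heat shock protein or heat shock factor in the study's lists of changed genes. The 33 chosen by symbol hold 15 for heat stress factors, 10 for HSP90 and 8 for small heat shock proteins, under 16 symbols. The 15 chosen by description hold 6 for HSP70, 5 for heat stress factors, and 1 each for DnaJ, HSP100, a small heat shock protein and a protein kinase with an Hsp20 segment. Those lists were drawn up on these same arrays, so the 15 were counted apart, and their values are a description and no independent evidence of a direction. Of the 15, 11 stand in a list of genes higher at a time up to 6 h, and 9 in a list of genes that changed over the time course, with 5 in both. Among the 33 chosen by symbol, 4 stand in one of these lists.

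The stressed samples were roots of line G07256 held for 0.5, 1, 3, 6, 12 or 24 h in dilute Hoagland's nutrient solution, to which 50 mmol/L NaHCO3 (pH 8.5) had been added. The 0 h samples were roots of the same line before stress. Each of the 14 arrays, 2 per time, was hybridized with RNA of the apical 3 cm of roots pooled from 3 plants, and sample labels give an age of 21 days. Roots left unstressed until a later hour were not analysed here, so stress and time of day cannot be told apart at any time after 0 h. The array was designed on cultivated soybean (Glycine max).

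Values are model-based intensities on a linear scale, as deposited. An intensity of 15.1, the 95th percentile of the probe sets for soybean pathogens on the same array, was taken as background. Of the 28727 soybean probe sets above it, 160 were removed by a limit on the spread between replicates, and 28567 were tested. Calls of a rise or a fall needed 2 limits in limma, fitted over all 14 arrays: the unadjusted p had to lie under 0.05 and the p adjusted after Benjamini and Hochberg over all 28567 under 0.15. These p-values reflect how far both pools of a time lay apart, and of these one array had been fitted to the other before deposition. SE is that of the log2 change.

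Median intensity over all soybean probe sets lay between 13.7 and 17.4. The spiked hybridization controls lay at 9.26 on the log2 scale on 1 array at 0.5 h (replicate 1) and at 9.09 on 1 array at 12 h (replicate 2), against 9.92 to 10.5 on the other 12. Of the probe sets for root markers 34 of 37 were tested, and the summed intensity of the 37 was 52181 and 54719 at 12 h, against 72604 and 74228 at 0 h. Leaf markers were also above background, with 7 of 10 tested, all of CAB3 (a chlorophyll-binding protein of the light-harvesting antenna) or PSAD (a subunit of photosystem I). The summed intensity of the 10 was 7816 and 5782 at 0 h, 2389 and 2041 at 6 h, 1299 and 1788 at 12 h, then 9288 and 10663 at 24 h. The low sums at 12 h came with low CAB3, as in GmaAffx.93190.1.S1_s_at, with 21.7 and 25.6 at 12 h, against 1535 and 1032 at 0 h, whereas PSAD in GmaAffx.5376.4.S1_at had 759 and 835 at 12 h, against 750 and 674 at 0 h. At 12 h the 7 leaf probe sets tested had a median change of -0.18 on the log2 scale. Of 16 seed marker probe sets 3 were tested, all for trypsin inhibitors (KTI-2 and KTI-3), and the sum of the 16 was 8068 and 8346 at 6 h and 7283 and 6119 at 12 h, against 2165 and 3408 at 0 h. Of 4 nodule markers 2 were tested. ENOD93, not tested, had 400 and 448 at 12 h, against 116 and 143 at 0 h, and ENOD55-2 and ENOD40B were higher in replicate 1 than in replicate 2 at all 7 times. The part of these markers in the results was not tested. In RNA of whole root tips, fewer cells of a type and less RNA per cell cannot be told apart.

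Of the 48 probe sets, 42 were tested, 27 of the 33 chosen by symbol and all 15 chosen by description. The 6 others lay at or near background: HSP22.5 (1.62 to 8.85 over the 14 arrays), 1 of 4 probe sets of HSP23.9 (2.07 to 13.8), both of HSF-08 (2.27 to 15.3) and both of HSF-30 (1.16 to 22.2). No comparison was made for them.

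Members chosen by symbol were mostly lower at 12 h and mixed at 24 h. Up to 3 h the share called lay near that of all probe sets tested, with 3.7% against 5.54% at 0.5 h and 18.5% against 17% at 3 h. At 0.5 h 1 of 27 was higher and none lower, where 5.54% of all probe sets tested were called, 2.26% higher and 3.27% lower. At 1 h none of the 42 members was called in limma, against 0.553% of all probe sets tested, and 6 had an unadjusted p under 0.05. The per-gene test of the study's methods called none at 1 h either, with 6 at an unadjusted p under 0.05. It also called none at 0.5, 3, 12 and 24 h, so its count at 1 h cannot show that nothing changed. Without 1 h replicate 1, limma called 1. At 3 h 4 of the 27 were higher and 1 lower (background 5% and 12%), and none was called without 0 h replicate 2 or 3 h replicate 2. At 6 h 1 was higher and 2 were lower (background 8.67% and 12.1%), and none was called without 0 h replicate 1 or 6 h replicate 2. At 12 h 14 of 27 were lower, 51.9%, and 1 was higher, where the background was 16.4% lower and 7.95% higher. These 14 were of HSP90-1, HSP90A1 and HSP23.9, with 3 probe sets each, and of HSP17.5-E, HSF-01 and HSF-15. The share thus counts some genes more than once. The median log2 change of the 27 at 12 h was -0.48, against -0.04 over all probe sets tested. At 24 h 6 were higher and 5 lower, with a background of 25.6%, of which 6.07% higher and 19.6% lower.

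**Figure D1:**
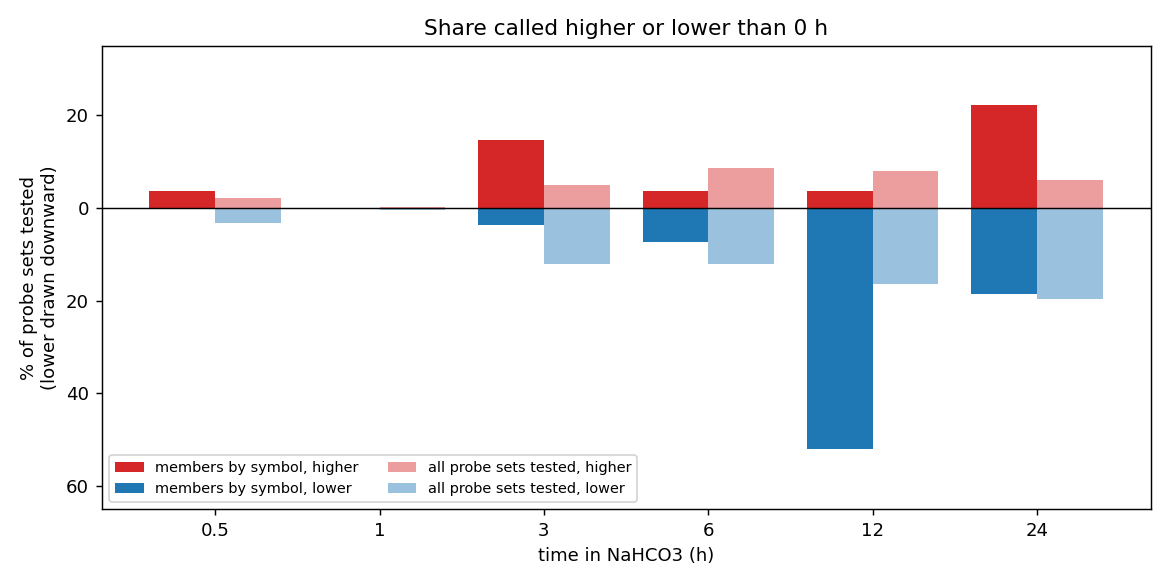
Share of probe sets called higher (red, upward) or lower (blue, downward) than 0 h at each time in NaHCO3, for the 27 members chosen by symbol (dark bars) and for all 28567 probe sets tested (pale bars). At 12 h the lower bar of the members reached 51.9%, against 16.4% of all probe sets tested. Some genes have several probe sets among the 27.

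Leaving out 1 array at a time left 9 to 15 of the 27 lower at 12 h, with 9 without 0 h replicate 2, and 13 were lower without both arrays of low spiked controls. At 24 h the split depended on scaling, with 6 higher and 5 lower as deposited, 10 and 4 after quantile normalization and 13 and 3 after centring each array on its median. Without 0 h replicate 2 it was 2 and 2, and without 24 h replicate 2 it was 2 and 3. Over all 42 members the split at 24 h was 9 and 10 as deposited, 13 and 7 after quantile normalization and 16 and 5 after centring. Centring moved the median of all probe sets tested at 24 h to 0.09, against -0.13 as deposited, and at 3 h to 0.03, against -0.14.

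The split of higher to lower over the 42 members was 12 to 3 at 3 h, 9 to 3 at 6 h, 3 to 21 at 12 h and 9 to 10 at 24 h. Among all 28567 probe sets tested, rises made up 5% (3 h), 8.67% (6 h), 7.95% (12 h) and 6.07% (24 h). Falls made up 12%, 12.1%, 16.4% and 19.6%, in the same order. The 15 chosen by description gave 8 of the 12 rises at 3 h and 8 of the 9 at 6 h. For the probe sets of the early list, the rises up to 6 h are what the study chose them by. At one or more stress times 22 of the 27 chosen by symbol were called, 10 higher and 17 lower at some time (5 did both), where 52.9% of all probe sets tested were called at some time, 21.3% higher and 39.3% lower. The 15 chosen by description were all called. In a spline test over the whole time course at an adjusted p under 0.001, HSF-03 alone was called of the 42, against 2.7% of all probe sets tested.

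Members chosen by symbol most often had their lowest level at 12 h, which held for 20 of 27. Their highest level fell at 24 h for 12 of 27 and at 3 h for 7. Of the 15 chosen by description, 6 were lowest at 12 h and 6 at 24 h, and 12 had their highest level at 3 or 6 h. The times of lowest and highest level were not counted over all probe sets tested. The counts of this paragraph are therefore a description and show nothing particular to the members.

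**Figure D2:**
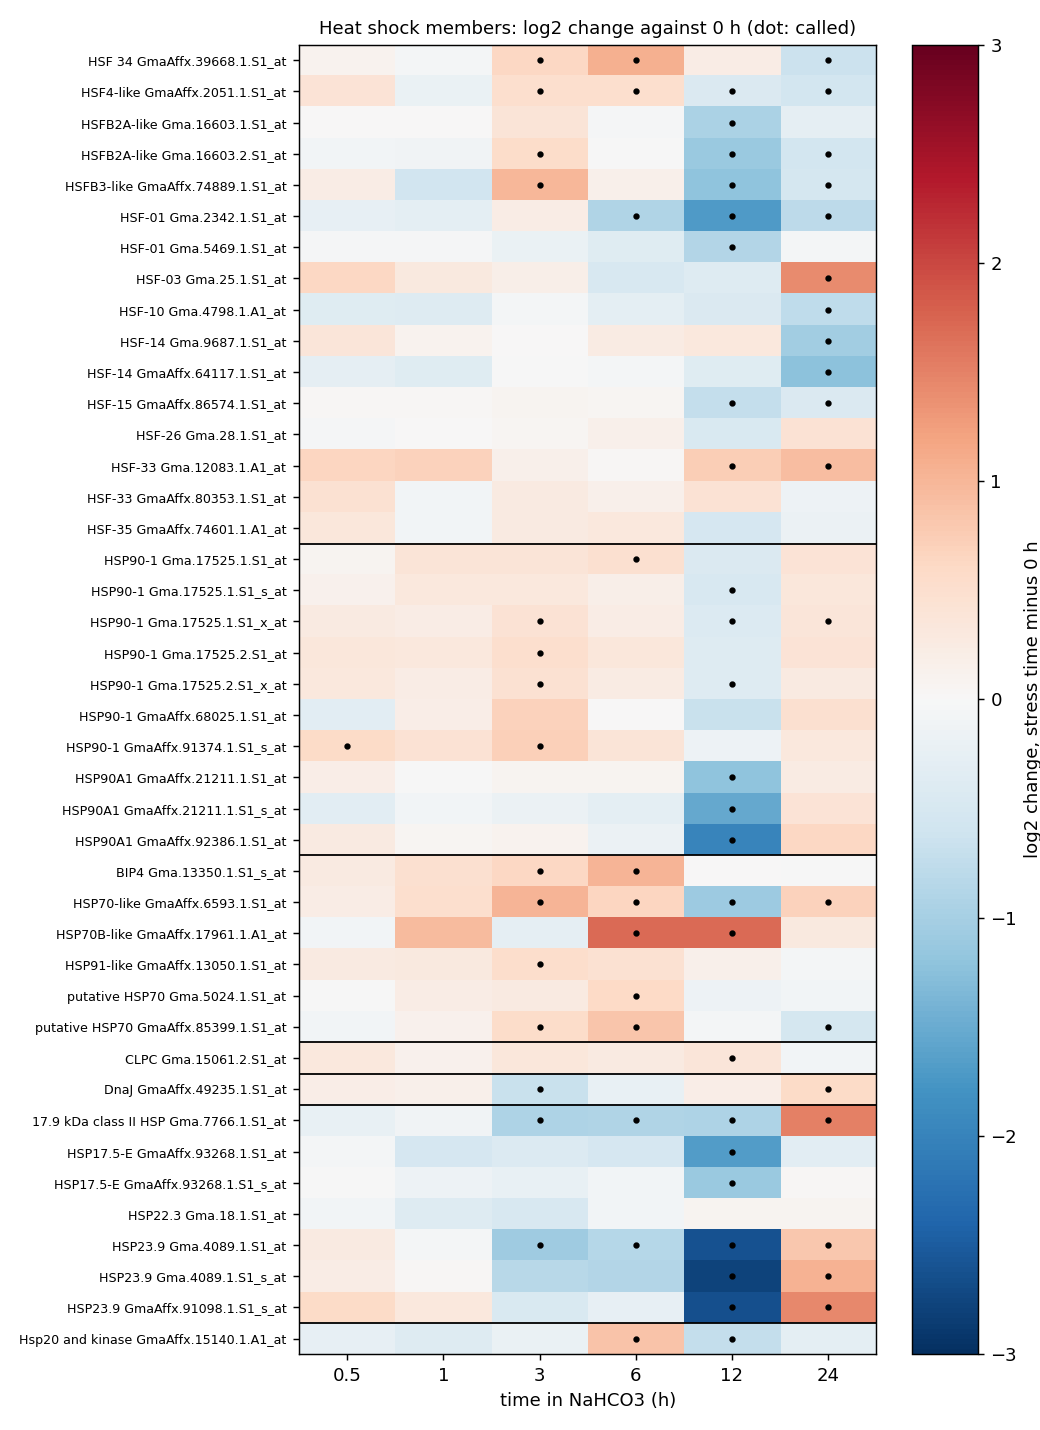
Log2 change against 0 h (colour, red higher and blue lower) of the 42 members tested, one row per probe set, at each stress time in NaHCO3 (columns). Dots mark calls, and lines part heat stress factors, HSP90, HSP70, HSP100, DnaJ, small heat shock proteins and the kinase with an Hsp20 segment. The darkest blue is HSP23.9 at 12 h, with log2 changes of -2.77 to -2.62.

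Small heat shock proteins bind unfolding proteins without using ATP and hold them until HSP70 and HSP100 refold them. HSP23.9, annotated as the precursor of a mitochondrial small heat shock protein, fell furthest at 12 h of the 42 members and was back above its 0 h level at 24 h. Its probe set Gma.4089.1.S1_s_at had intensities of 342 and 252 at 0 h, 240 and 494 at 0.5 h, 222 and 414 at 1 h, 170 and 162 at 3 h, 147 and 174 at 6 h, 36.0 and 51.7 at 12 h, then 601 and 620 at 24 h. Both arrays at 12 h lay below every other array, and both at 24 h above every other. Gma.4089.1.S1_at had 111 and 82.2 at 0 h, 93.9 and 142 at 0.5 h, 77.9 and 109 at 1 h, 43.8 and 47.4 at 3 h, 55.9 and 49.5 at 6 h, 12.0 and 20.2 at 12 h, then 166 and 166 at 24 h. GmaAffx.91098.1.S1_s_at had 114 and 70.9 at 0 h, 96.2 and 185 at 0.5 h, 77.7 and 159 at 1 h, 64.3 and 67.0 at 3 h, 73.0 and 79.7 at 6 h, 9.19 and 23.2 at 12 h, then 245 and 241 at 24 h. In both, the arrays at 12 h were again the lowest, and 1 of the 2 lay under background.

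At 12 h Gma.4089.1.S1_s_at was 6.81-fold lower than at 0 h (log2 change -2.77, SE 0.37, adjusted p = 0.00119). GmaAffx.91098.1.S1_s_at was lower too (-2.63, SE 0.47, adjusted p = 0.00594) and Gma.4089.1.S1_at, which stands in the time course list, as well (-2.62, SE 0.29). With the 1 array under background set to the background level, they were 4.82- and 5.48-fold lower. The 3 calls held with any 1 array left out. At 24 h the same probe sets were 2.08-, 2.70- and 1.74-fold higher than at 0 h. These calls were lost without 0 h replicate 2 (adjusted p of 0.326, 0.31 and 0.376) and without either array of 24 h. Gma.4089.1.S1_at alone was also called lower at 3 h (-1.07) and 6 h (-0.86), but not without 0 h replicate 1 (adjusted p of 0.261 and 0.375), nor without either array of the time compared, nor at 3 h without 0 h replicate 2.

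HSP17.5-E, a cytosolic class I small heat shock protein, was low at 12 h as well. GmaAffx.93268.1.S1_at had 20.3 and 54.2 at 12 h, against 92.0 and 123 at 0 h, and 72.9 and 98.9 at 24 h. The change at 12 h was -1.68 (SE 0.39, adjusted p = 0.0207), or 3.20-fold lower, and held with any 1 array left out. GmaAffx.93268.1.S1_s_at had 16.3 and 33.3 at 12 h, against 43.7 and 58.5 at 0 h, a change of -1.12 (SE 0.33) whose call was lost without 0 h replicate 2 (adjusted p = 0.249) and without 12 h replicate 1. The 2 arrays at 12 h lay far apart in both probe sets, though below both arrays of 0 h. Neither probe set was called at 24 h.

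The 17.9 kDa class II protein, of another class of cytosolic small heat shock proteins, was low from 3 to 12 h and high at 24 h. Gma.7766.1.S1_at had 144 and 142 at 0 h, 81.9 and 181 at 0.5 h, 118 and 147 at 1 h, 88.9 and 63.9 at 3 h, 74.8 and 77.7 at 6 h, 73.6 and 77.7 at 12 h, then 418 and 401 at 24 h. The 2 arrays at 24 h lay above all others, and those of 3, 6 and 12 h below both of 0 h. It was 2.87-fold higher at 24 h than at 0 h (log2 change 1.52, SE 0.31), and its changes at 3, 6 and 12 h were -0.92, -0.91 and -0.92, each called. The call at 24 h held with any array left out. The 3 falls were lost on leaving out either array of 0 h or of the time compared, with an adjusted p of up to 0.417 at 3 h (without 3 h replicate 2), 0.296 at 6 h (without 6 h replicate 1) and 0.235 at 12 h (without 0 h replicate 1); that at 3 h was also lost without either array of 6 h and under both other scalings. HSP22.3 stayed between 11.9 and 27.6 on all arrays and was not called at any time.

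**Figure D3:**
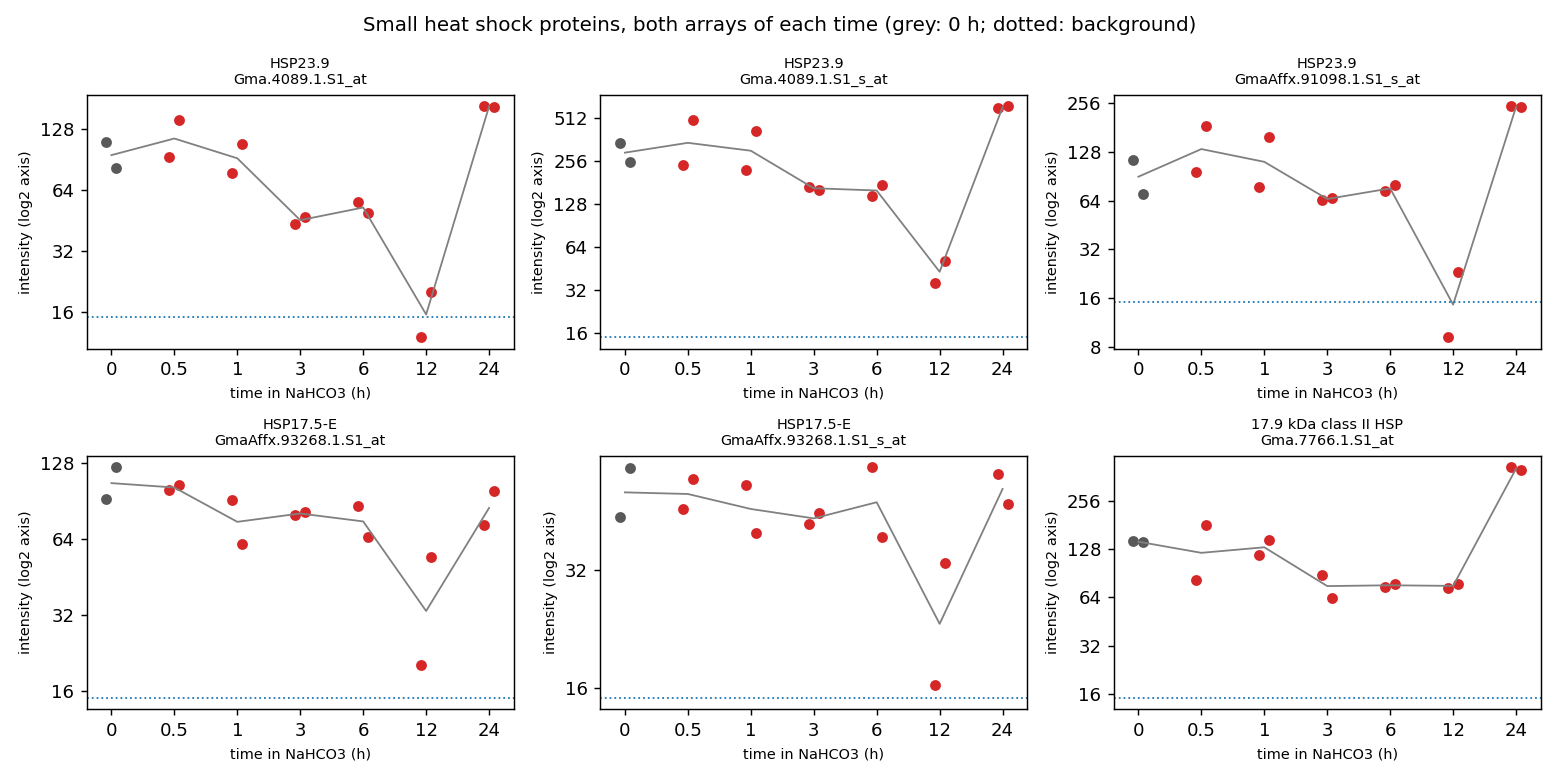
Intensity (log2 axis) of 6 probe sets of small heat shock proteins at each time in NaHCO3. Points are the 2 arrays of a time (grey at 0 h, red under stress), the line joins their geometric means and the dotted line is background. HSP23.9 and HSP17.5-E are lowest at 12 h, and the class II protein reached 418 and 401 at 24 h.

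HSP90 folds and activates signalling proteins such as kinases and receptors, with the help of co-chaperones, and is abundant in the cytosol. The array measures HSP90A1 with 3 probe sets and HSP90-1 with 7, and 9 of the 10 were called against 0 h at some time, as were 52.9% of all probe sets tested. HSP90A1 was low at 12 h. GmaAffx.21211.1.S1_at had 42.5 and 65.8 at 0 h, 56.6 and 64.4 at 0.5 h, 49.8 and 55.5 at 1 h, 61.2 and 50.5 at 3 h, 54.6 and 57.1 at 6 h, 21.2 and 24.4 at 12 h, then 65.6 and 59.4 at 24 h. GmaAffx.21211.1.S1_s_at had 53.5 and 58.8 at 0 h, 33.5 and 59.8 at 0.5 h, 47.2 and 59.9 at 1 h, 64.8 and 38.0 at 3 h, 46.8 and 45.4 at 6 h, 19.2 and 19.3 at 12 h, then 87.3 and 64.4 at 24 h. GmaAffx.92386.1.S1_at had 21.1 and 25.8 at 0 h, 28.7 and 27.4 at 0.5 h, 26.3 and 22.6 at 1 h, 30.4 and 20.8 at 3 h, 15.1 and 28.2 at 6 h, 5.13 and 6.86 at 12 h, then 40.7 and 31.6 at 24 h. In each probe set both arrays at 12 h lay below the other 12.

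At 12 h HSP90A1 was 2.32-fold lower than at 0 h in GmaAffx.21211.1.S1_at (-1.22, SE 0.21, adjusted p = 0.00498) and 2.92-fold lower in GmaAffx.21211.1.S1_s_at (-1.54, SE 0.31, adjusted p = 0.00987). GmaAffx.92386.1.S1_at lay under background on both arrays at 12 h, where only a bound can be given, with the background level in place of the array values: it was at least 1.55-fold lower than at 0 h. Its call in limma (adjusted p = 0.0026) is on the deposited values and does not test this bound. The 3 calls held with any 1 array left out and under both other scalings. HSP90A1 was called at no other stress time.

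Of the 7 probe sets of HSP90-1, 4 were called higher at 3 h than at 0 h (background 5%), with log2 changes over all 7 of 0.32 to 0.70, and 3 were called lower at 12 h (background 16.4%), with changes over all 7 of -0.67 to -0.16. GmaAffx.91374.1.S1_s_at, singled out after its values were seen as the only member called at 0.5 h, had 1510 and 1419 at 0 h, 2145 and 2237 at 0.5 h, 2003 and 1936 at 1 h, 2334 and 2437 at 3 h, 1853 and 1971 at 6 h, 1485 and 1153 at 12 h, then 1699 and 1948 at 24 h. The arrays of 0.5, 1, 3, 6 and 24 h all lay above both arrays of 0 h. This probe set is 1 of 2 of HSP90-1 in the study's early list, so its rises of 0.58 at 0.5 h and 0.70 at 3 h are a description. The call at 0.5 h was lost on leaving out any array of 0, 0.5, 3 or 6 h (adjusted p of up to 0.356, without 0 h replicate 2), and that at 3 h without 0 h replicate 2 or 3 h replicate 2 (up to 0.187).

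The fall of HSP90-1 at 12 h depended on scaling: 3 probe sets were called as deposited, 1 after quantile normalization and none after centring. Without 12 h replicate 2, an array of low spiked controls, none of the 3 was called, with adjusted p of 0.344, 0.39 and 0.396. The rise at 3 h was called in 4 probe sets as deposited, 2 after quantile normalization and 6 after centring, and that at 24 h in 1, 4 and 6. In GmaAffx.68025.1.S1_at the 2 arrays at 12 h lay far apart, at 36.8 and 9.98.

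HSP70 binds short exposed stretches of unfolded proteins and releases them with the use of ATP. The 6 HSP70 probe sets came from the early list, so that their rises were chosen for. Rises were called in 4 of them at 3 h (background 5%) and in 5 at 6 h (background 8.67%). No fall was called among them at either time, against 12% (3 h) and 12.1% (6 h) of all probe sets tested. GmaAffx.6593.1.S1_at, described as HSP70, had 501 and 481 at 0 h, 522 and 637 at 0.5 h, 633 and 755 at 1 h, 1021 and 964 at 3 h, 731 and 795 at 6 h, 257 and 204 at 12 h, then 739 and 855 at 24 h. All stressed arrays up to 6 h lay above those of 0 h, both at 12 h below, and both at 24 h above again. Its log2 change was 1.02 at 3 h and 0.64 at 6 h, then -1.10 (SE 0.18) at 12 h and 0.70 at 24 h. The calls at 3, 12 and 24 h held with any 1 array left out, and that at 6 h was lost without any array of 0 or 6 h (adjusted p of up to 0.25, without 6 h replicate 2).

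The probe set described as HSP70B, GmaAffx.17961.1.A1_at, had its high levels at 6 and 12 h. It had 27.4 and 26.5 at 0 h, 25.1 and 25.7 at 0.5 h, 32.5 and 82.4 at 1 h, 24.0 and 20.8 at 3 h, 104 and 73.8 at 6 h, 86.8 and 88.0 at 12 h, then 36.9 and 29.9 at 24 h. The arrays of 6 and 12 h lay above both of 0 h, and the 2 arrays at 1 h lay far apart. It was 3.25-fold higher at 12 h than at 0 h (log2 change 1.70, SE 0.35, adjusted p = 0.0113), a call that held with any 1 array left out, and 3.26-fold higher at 6 h, a time by which it was listed.

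BIP4 encodes a luminal binding protein, the HSP70 of the endoplasmic reticulum. Its probe set Gma.13350.1.S1_s_at had 489 and 488 at 0 h, 612 and 568 at 0.5 h, 754 and 614 at 1 h, 753 and 759 at 3 h, 953 and 1019 at 6 h, 570 and 422 at 12 h, then 441 and 535 at 24 h. The level at 6 h was above all others, and the arrays of 12 and 24 h lay on both sides of those of 0 h. Its changes were 0.63 at 3 h, a call lost without any array of 0 or 3 h (adjusted p of up to 0.272, without 3 h replicate 2), and 1.01 at 6 h, and it was not called at 12 or 24 h.

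Of the 2 probe sets described as putative HSP70, GmaAffx.85399.1.S1_at had 103 and 104 at 0 h, 107 and 89.3 at 0.5 h, 114 and 111 at 1 h, 149 and 155 at 3 h, 171 and 201 at 6 h, 122 and 80.4 at 12 h, then 75.5 and 68.7 at 24 h. Both arrays of 3 and of 6 h lay above those of 0 h, and both of 24 h below. Its call at 24 h (-0.52) was lost under both other scalings and on leaving out any array of 0, 3 or 24 h (adjusted p of up to 0.354, without 24 h replicate 2), that at 3 h (0.56) on leaving out any array of 0, 1, 3 or 6 h (up to 0.374), and that at 6 h (0.84) without 6 h replicate 2 (0.188). Gma.5024.1.S1_at had 416 and 433 at 0 h, 459 and 383 at 0.5 h, 578 and 419 at 1 h, 505 and 511 at 3 h, 604 and 686 at 6 h, 422 and 345 at 12 h, then 399 and 404 at 24 h. It was called at 6 h (0.60), and not without any array of 0 or 6 h (up to 0.339).

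GmaAffx.13050.1.S1_at, described by HSP91 of Arabidopsis, a member of the HSP110 branch of the HSP70 family, had 397 and 376 at 0 h, 479 and 449 at 0.5 h, 445 and 500 at 1 h, 589 and 533 at 3 h, 511 and 553 at 6 h, 530 and 345 at 12 h, then 361 and 381 at 24 h. All arrays from 0.5 to 6 h lay above those of 0 h, and the 2 at 12 h lay on both sides of them. It was called at 3 h (0.54), a call lost on leaving out any of 10 arrays (adjusted p of up to 0.368, without 3 h replicate 1). As a group, the 6 HSP70 probe sets had a median log2 change of -0.03 at both 12 and 24 h, which turned to 0.09 and 0.19 after centring and to 0.12 and 0.10 after quantile normalization.

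**Figure D4:**
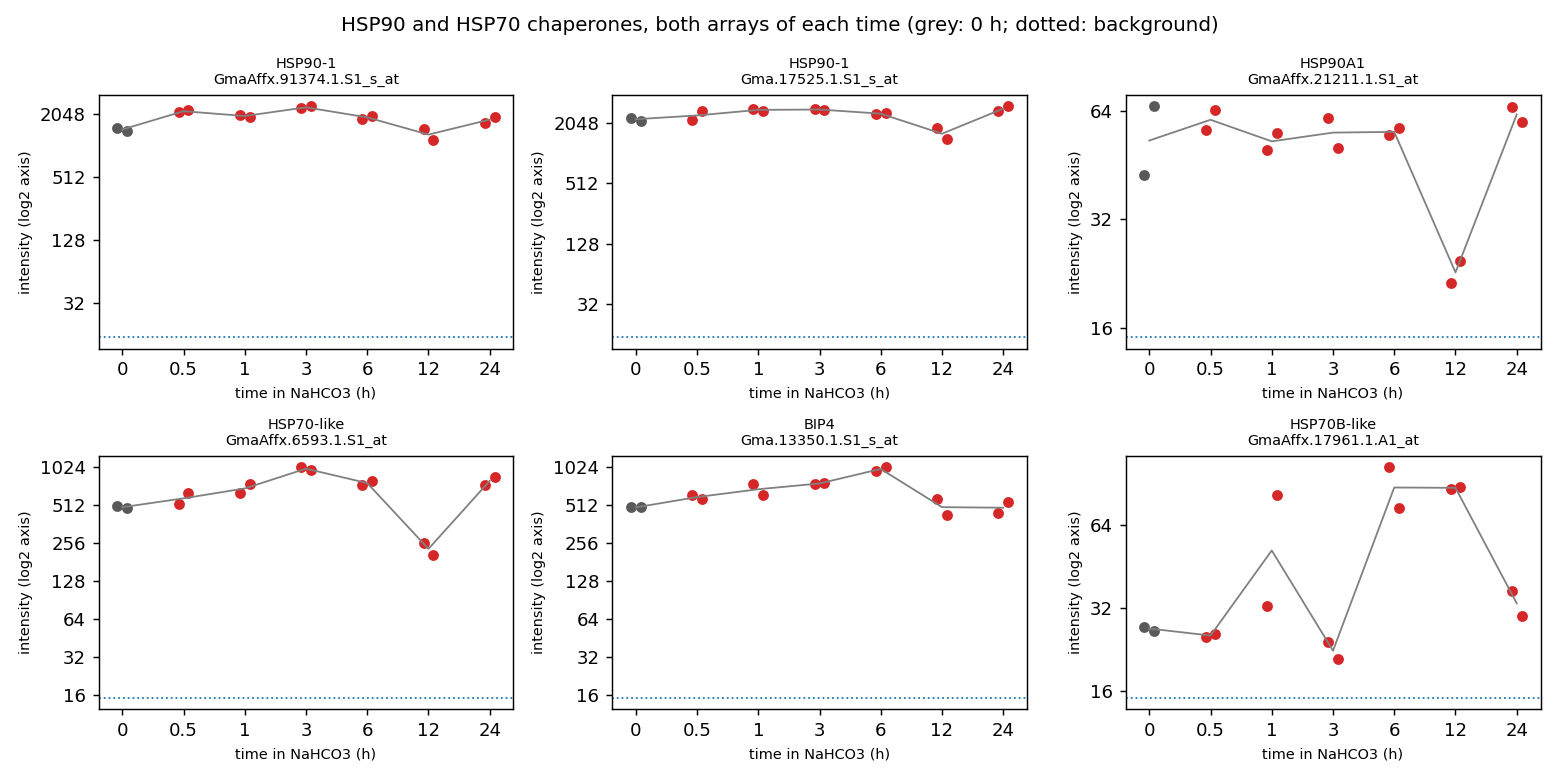
Intensity (log2 axis) of 6 probe sets of HSP90 and HSP70 at each time in NaHCO3. Points are the 2 arrays of a time (grey at 0 h, red under stress), the line joins their geometric means and the dotted line is background. HSP70-like and HSP90A1 are lowest at 12 h, whereas HSP70B-like stood at 86.8 and 88.0 there.

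HSP100 proteins unfold aggregated proteins with the use of ATP, and CLPC is the form of the plastid stroma. Gma.15061.2.S1_at, described as CLPC, had 60.1 and 61.5 at 0 h, 77.9 and 72.8 at 0.5 h, 67.5 and 64.5 at 1 h, 78.2 and 76.2 at 3 h, 71.2 and 75.3 at 6 h, 84.2 and 72.7 at 12 h, then 54.2 and 61.0 at 24 h. All arrays from 0.5 to 12 h lay above those of 0 h. The call at 12 h (0.36, adjusted p = 0.129) was lost on leaving out any of 9 arrays (up to 0.358, without 12 h replicate 1) and with the replicate block (the replicate number as a term).

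DnaJ proteins, also named HSP40, pass unfolded proteins to HSP70 and speed its use of ATP. GmaAffx.49235.1.S1_at, described as DnaJ, had 66.0 and 54.1 at 0 h, 64.3 and 74.0 at 0.5 h, 66.8 and 66.0 at 1 h, 38.3 and 37.3 at 3 h, 49.5 and 53.3 at 6 h, 62.8 and 73.9 at 12 h, then 94.7 and 82.8 at 24 h. The arrays of 3 h lay below all others, and those of 24 h above all others. It was called lower at 3 h (-0.66) and higher at 24 h (0.57). The first call was lost without 0 h replicate 1 (adjusted p = 0.233) and without either array of 3 h, and the second without 0 h replicate 2 (adjusted p = 0.246) and without 24 h replicate 1.

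GmaAffx.15140.1.A1_at, described as a protein kinase with an Hsp20 segment, had 96.3 and 118 at 0 h, 84.0 and 97.7 at 0.5 h, 92.8 and 70.9 at 1 h, 90.0 and 95.8 at 3 h, 197 and 192 at 6 h, 58.8 and 70.8 at 12 h, then 72.0 and 105 at 24 h. Both arrays of 6 h lay above all others. It was called higher at 6 h (0.87) and lower at 12 h (-0.72). The first call was lost without 0 h replicate 1 (adjusted p = 0.201) and without either array of 6 h, and the second without 0 h replicate 2 (adjusted p = 0.27) and without 12 h replicate 1.

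Heat stress factors bind heat shock elements before the chaperone genes. Class A factors activate these genes, and class B factors lack the activating segment, some of them repressing their targets in Arabidopsis. The study's lists hold 5 probe sets for such factors, of which 4 are described by class B factors of Arabidopsis (HSF4, another name of HSFB1, HSFB2A with 2 probe sets, and HSFB3), and 1 as soybean heat shock transcription factor 34. All 5 were lower at 12 h than at 6 h, with log2 changes of -1.37 to -0.84 (background 18.6% lower). The 4 described by class B factors stand in the early list and factor 34 in the time course list. A later fall was thus favoured by the choice, and the count is a description.

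HSFB3-like (GmaAffx.74889.1.S1_at) had 214 and 236 at 0 h, 297 and 235 at 0.5 h, 155 and 148 at 1 h, 456 and 434 at 3 h, 256 and 245 at 6 h, 90.8 and 104 at 12 h, then 150 and 160 at 24 h. Both arrays at 3 h lay above all others, and both at 12 h below all others. It was 1.98-fold higher at 3 h, a time by which it was listed, 2.31-fold lower at 12 h (log2 change -1.21, SE 0.16, adjusted p = 0.00115) and lower at 24 h (-0.53, adjusted p = 0.0522). The call at 12 h held with any 1 array left out, and that at 24 h was lost after centring, without 0 h replicate 2 (adjusted p = 0.224) and without 24 h replicate 1.

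The 2 probe sets of HSFB2A-like ran alike. Gma.16603.2.S1_at had 147 and 146 at 0 h, 113 and 169 at 0.5 h, 136 and 136 at 1 h, 214 and 216 at 3 h, 155 and 135 at 6 h, 69.7 and 65.5 at 12 h, then 92.6 and 110 at 24 h. Gma.16603.1.S1_at had 298 and 288 at 0 h, 276 and 314 at 0.5 h, 318 and 272 at 1 h, 372 and 393 at 3 h, 302 and 268 at 6 h, 142 and 159 at 12 h, then 227 and 258 at 24 h. Both were highest at 3 h and lowest at 12 h on both arrays.

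At 12 h Gma.16603.2.S1_at was 2.17-fold lower than at 0 h (-1.12, SE 0.19) and Gma.16603.1.S1_at 1.95-fold lower (-0.96, SE 0.16), and both calls held with any 1 array left out. Gma.16603.2.S1_at was also called at 3 h (0.56) and 24 h (-0.54). The call at 3 h was lost on leaving out any array of 0, 3 or 6 h (adjusted p of up to 0.34, without 3 h replicate 2), and that at 24 h under both other scalings, without either array of 0 h and without 24 h replicate 1 (up to 0.308).

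HSF4-like (GmaAffx.2051.1.S1_at) had 250 and 277 at 0 h, 325 and 375 at 0.5 h, 228 and 232 at 1 h, 369 and 378 at 3 h, 359 and 387 at 6 h, 190 and 203 at 12 h, then 178 and 183 at 24 h. It stayed low at 24 h, on both arrays under every array of 0 to 6 h. Its changes were -0.42 (adjusted p = 0.0794) at 12 h and -0.54 (adjusted p = 0.0306) at 24 h, and both calls were lost without 0 h replicate 2 (adjusted p of 0.316 and 0.169). That at 12 h was also lost without 12 h replicate 1 and under both other scalings. The rises at 3 h (0.51) and 6 h (0.50), by which it was listed, were lost without 0 h replicate 1 and without either array of their own time, with adjusted p of up to 0.267 and 0.269, and that at 3 h also without 0 h replicate 2.

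HSF 34 (GmaAffx.39668.1.S1_at) had 61.4 and 77.4 at 0 h, 67.7 and 81.6 at 0.5 h, 67.2 and 65.3 at 1 h, 104 and 107 at 3 h, 150 and 140 at 6 h, 80.3 and 81.8 at 12 h, then 44.7 and 44.2 at 24 h. Both arrays of 6 h lay above all others, and both of 24 h below all others. It was 2.10-fold higher at 6 h (1.07, SE 0.16), a call that held with any 1 array left out, and 1.55-fold lower at 24 h (-0.63), a call lost without 0 h replicate 2 (adjusted p = 0.178). Its rise at 3 h (0.62) was not called without 0 h replicate 1 (adjusted p = 0.26) and without either array of 3 h.

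Heat stress factors chosen by symbol went different ways. Of the 11 tested, 12 h held 1 rise and 3 falls and 24 h held 2 rises and 5 falls, and none was called at 0.5, 1 or 3 h. Over all probe sets tested the shares higher and lower were 7.95% and 16.4% at 12 h and 6.07% and 19.6% at 24 h. Their median log2 change at 24 h was -0.18, which was -0.22 after quantile normalization and turned to 0.04 after centring. The factors with the largest called changes were HSF-01, HSF-03 and HSF-14.

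HSF-01 in Gma.2342.1.S1_at had 451 and 462 at 0 h, 494 and 295 at 0.5 h, 354 and 389 at 1 h, 487 and 579 at 3 h, 250 and 235 at 6 h, 121 and 163 at 12 h, then 289 and 245 at 24 h. The arrays of 6, 12 and 24 h all lay below both of 0 h. It was 3.25-fold lower at 12 h (-1.70, SE 0.24, adjusted p = 0.00177), a call that held with any 1 array left out. Its changes of -0.91 at 6 h and -0.78 at 24 h were not called without either array of 0 h, nor without 6 h replicate 2 (adjusted p = 0.202) and 24 h replicate 2 (adjusted p = 0.244), nor, at 24 h, after centring. A second probe set of HSF-01, Gma.5469.1.S1_at, had 282 and 368 at 12 h, against 578 and 599 at 0 h, a change of -0.87 whose call was lost without either array of 0 h or without 12 h replicate 1 (adjusted p = 0.236).

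HSF-03 (Gma.25.1.S1_at) was high at 24 h. It had 33.6 and 30.1 at 0 h, 47.1 and 50.6 at 0.5 h, 33.9 and 44.2 at 1 h, 41.0 and 31.3 at 3 h, 20.8 and 25.2 at 6 h, 21.5 and 27.2 at 12 h, then 78.0 and 92.2 at 24 h. The arrays at 24 h lay above all others, and it was 2.66-fold higher there than at 0 h (1.41, SE 0.21, adjusted p = 0.00227), a call that held with any 1 array left out and under both other scalings.

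HSF-14 was low at 24 h. GmaAffx.64117.1.S1_at had 63.5 and 76.9 at 0 h, 56.9 and 58.7 at 0.5 h, 53.9 and 55.2 at 1 h, 79.3 and 61.5 at 3 h, 74.9 and 59.4 at 6 h, 42.2 and 71.0 at 12 h, then 35.4 and 24.6 at 24 h. Both arrays at 24 h lay below the other 12. It was 2.36-fold lower at 24 h than at 0 h (-1.24, SE 0.27, adjusted p = 0.014). Its other probe set, Gma.9687.1.S1_at, had 12.4 and 15.4 at 24 h, 1 of the 2 arrays under background, against 26.6 and 30.3 at 0 h. It was called lower at 24 h on the deposited values (adjusted p = 0.00899). With the array under background set to the background level it was 1.86-fold lower, which this p does not test. Both calls held with any 1 array left out.

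Among the other factors, HSF-15 was lower at 12 h (-0.72) and 24 h (-0.43), and HSF-10 at 24 h (-0.77). HSF-33 in Gma.12083.1.A1_at, singled out after its values were seen as the only member chosen by symbol called higher at 12 h, had 32.8 and 39.8 at 12 h and 45.6 and 38.0 at 24 h, against 25.4 and 18.6 at 0 h, changes of 0.73 and 0.93. The other probe set of HSF-33, GmaAffx.80353.1.S1_at, was not called against 0 h at any time (changes of 0.43 at 12 h and -0.15 at 24 h). The calls of HSF-15 at 24 h and HSF-33 at 12 h were lost without 0 h replicate 2 (adjusted p of 0.299 and 0.241), and that of HSF-10 without 0 h replicate 2 or 24 h replicate 2 (up to 0.23). That of HSF-33 was also lost without 12 h replicate 2 and that of HSF-15 without 24 h replicate 1 and under both other scalings. HSF-26 and HSF-35 were not called against 0 h.

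**Figure D5:**
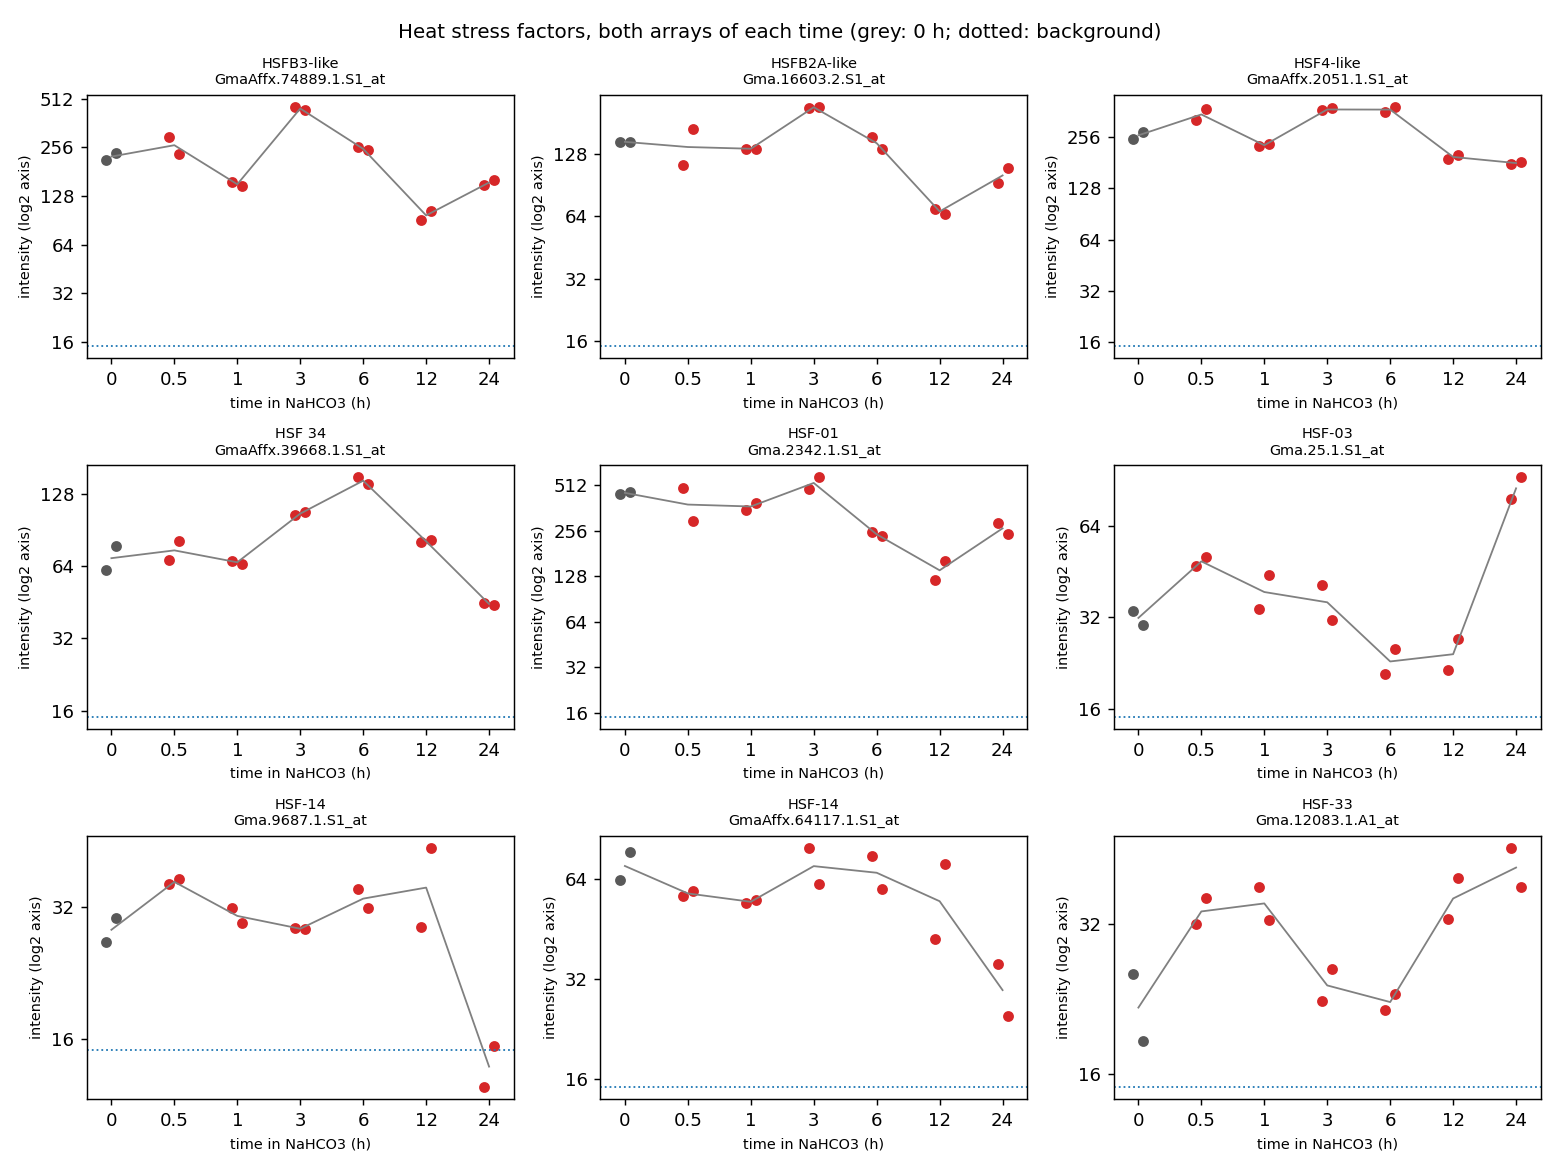
Intensity (log2 axis) of 9 probe sets of heat stress factors at each time in NaHCO3. Points are the 2 arrays of a time (grey at 0 h, red under stress), the line joins their geometric means and the dotted line is background. HSFB3-like and HSFB2A-like are lowest at 12 h, HSF-03 reached 78.0 and 92.2 at 24 h and HSF-14 is lowest at 24 h.

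The steps into and out of 12 h were tested directly, between stress times and without the 0 h arrays in the contrast. At 12 h 18 of the 27 members chosen by symbol were lower than at 6 h, 66.7%, and 1 was higher, where 18.6% of all probe sets tested were lower and 15.3% higher. Their median log2 change was -0.69, against 0.00 over all probe sets tested. At 24 h 19 of 27 were higher than at 12 h, 70.4%, and 3 were lower, where 31.9% of all probe sets tested were called, 12.1% higher and 19.8% lower, with a median of 0.83 against -0.10. These 2 steps share the 12 h arrays. Of the leaf markers 3 of 7 were lower at 12 h than at 6 h, and at 24 h 5 were higher than at 12 h and 1 lower. Of the root markers 11 of 34 were lower in the first step, and 14 higher and 2 lower in the second. Their part was not tested. Leaving out 1 array at a time left 13 to 18 members lower in the first step and 14 to 19 higher in the second, and without both arrays of low spiked controls 17 were lower and 17 higher.

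HSP90 and small heat shock proteins made up most of these calls. From 6 to 12 h, 9 of 10 HSP90 probe sets and 5 of 6 small heat shock probe sets chosen by symbol were lower and none was higher. From 12 to 24 h, all 10 HSP90 probe sets and 5 of 6 small ones were higher. Of 11 heat stress factors chosen by symbol 4 were higher and 3 lower. Over all probe sets tested, 18.6% were lower and 15.3% higher in the first step, and 12.1% higher and 19.8% lower in the second. The 10 HSP90 probe sets are of HSP90-1 and HSP90A1 alone. HSP23.9 was 14.2-fold higher at 24 h than at 12 h in Gma.4089.1.S1_s_at (SE 0.37 on the log2 scale). In the other 2 probe sets, with the array under background at 12 h set to the background level, it was 9.55-fold (Gma.4089.1.S1_at) and 13.0-fold (GmaAffx.91098.1.S1_s_at) higher. HSP90A1 was 2.74- and 3.90-fold higher in the 2 probe sets above background at 12 h, and at least 2.38-fold higher in the third. HSP90-1 was higher by 0.48 to 1.16 over its 7 probe sets. The largest of these was in GmaAffx.68025.1.S1_at, with 1 of 2 arrays under background at 12 h, a call lost on leaving out any of 11 arrays (adjusted p of up to 0.708, without 12 h replicate 2).

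Of the 15 members chosen by description, 10 were lower and 1 was higher at 12 h than at 6 h. The next step, 24 h against 12 h, held 6 rises and 4 falls. The shares over all probe sets tested were 18.6% lower and 15.3% higher in the first step, and 12.1% higher and 19.8% lower in the second. Of the 15, 11 had been listed as higher at a time up to 6 h on these arrays. That choice favours a later fall, so the count of the first step is a description. HSP70-like was 3.33-fold lower in the first step (-1.73, SE 0.18) and 3.47-fold higher in the second (1.79). The class II protein was 5.42-fold higher at 24 h than at 12 h. HSP70B-like went down in the second step, 2.63-fold (-1.40, SE 0.35, adjusted p = 0.0246), and HSF 34 was 1.82-fold lower. Earlier steps held fewer calls over all 42 members: 5 were higher and 4 lower at 3 h than at 1 h, and 3 higher and 4 lower at 6 h than at 3 h, where 17.2% (5.51% higher and 11.6% lower) and 12.6% (8.05% and 4.56%) of all probe sets tested were called.

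Probe sets of one gene mostly ran in parallel. Over the 7 time means, the correlation between the 3 tested probe sets of HSP23.9 was 0.978 to 0.994, between those of HSP90A1 0.924 to 0.982 and between those of HSP90-1 0.618 to 0.994. Those of HSP17.5-E stood at 0.958, HSFB2A-like at 0.98, HSF-01 at 0.82 and HSF-14 at 0.821, whereas the 2 of HSF-33 stood at -0.0541. Within families, the median correlation of a pair was 0.872 among the 10 HSP90 probe sets, 0.858 among 6 small heat shock probe sets and 0.239 among the 11 heat stress factors chosen by symbol. Pairs within 1 gene count here: 21 of HSP90-1 and 3 of HSP90A1 among 45 HSP90 pairs. Of the 15 small heat shock pairs, 3 were of HSP23.9 and 1 of HSP17.5-E. Of the 55 pairs of factors, HSF-01, HSF-14 and HSF-33 gave 1 each. The families were not compared without such pairs. All these correlations are descriptions over 7 points that share their arrays. Probe sets of one gene can share probes, and the 7 members whose names end in _s_at and the 2 in _x_at can also bind transcripts of other genes, so the counts above are of probe sets and not of independent genes.

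Galactinol synthase, the first enzyme of the synthesis of raffinose sugars, is a known target of heat stress factors in Arabidopsis, and so are ascorbate peroxidases, which remove hydrogen peroxide. Of 8 tested probe sets with symbols of such targets (GOLS, APX1, APX2 and DREB2A2), none was higher than at 0 h at any time, and 1, 2 and 1 were lower at 6, 12 and 24 h, where 12.1, 16.4 and 19.6% of all probe sets tested were. Found by its description in the study's lists, a thylakoid ascorbate peroxidase (Gma.10720.2.S1_x_at) was higher at 6 h (0.61, adjusted p = 0.0291). GOLS (Gma.5637.1.S1_at) had the largest change, -3.70 (SE 0.46, adjusted p = 0.00086) at 12 h, after -1.54 at 6 h, and was higher at 24 h than at 12 h by 2.26 (adjusted p = 0.00996). The other probe set lower at 12 h was one of APX1 (-0.53).

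Outside the members, both probe sets with symbols of chaperones of the endoplasmic reticulum, BIP2 (Gma.45.1.S1_at) and another of BIP4 (Gma.17631.1.S1_at), were higher at 6 h than at 0 h, by 1.14 (SE 0.15, adjusted p = 0.00261) and 0.80 (SE 0.17, adjusted p = 0.0151). At 12 h they were lower than at 6 h, with log2 changes of -1.45 and -0.86, and neither was called against 0 h. Of 12 found by their description in the study's lists (luminal binding protein, calnexin and calreticulin), 8 were higher at 6 h and 4 not called (background 8.67% higher), and 8 were lower at 12 h than at 6 h (background 18.6%), but those lists were drawn on these arrays. Of 5 probe sets described as DnaJ in the same lists, 3 were lower at 12 h than at 0 h (background 16.4%). All 5 were lower at 12 h than at 6 h (background 18.6%), which is a description for the same reason. The 1 probe set with a DnaJ symbol was not called.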

How the data were processed

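Roots were profiled on 14 Affymetrix arrays, 2 per time. The authors deposited intensity values per probe set, made in dChip from perfect-match probes alone: 1 array of each time was scaled to the median of all arrays, and the other was fitted to it by invariant sets. Here log2 was taken of the deposited intensity (values under 1 set to 1). Probe sets had to lie above background (95th percentile of 23350 pathogen probe sets). The ratio of SD to mean between replicates, as a median over the 7 times, had to lie above 0 and under 0.5. These limits kept 28567 of 37594, and the replicates of a single time could still lie far apart. limma 3.58.1 in R 4.3.3 was fitted to 7 groups with a residual df of 7 and a prior df of 3.24, and the time course with a spline of 4 df. Call limits were those of the study's methods. The array number limits the precision, and the median SE was 0.236. The fit was tested on simulated data.

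Members and lists were chosen with earlier results of these data known. Members named with all values were those chosen by description and, for each family, up to 3 probe sets with the largest absolute called change against 0 h. Probe sets with HSP among several symbols (3) and those described by a J-domain alone were left out. No sequence or position is given, since no member was matched to the RefSeq table by ID or symbol. Replicate numbers were not taken to pair the samples: deviations correlated at -0.349 to 0.295 over 21 pairs, 6 of them over 0.1, although 2 nodule markers were higher in replicate 1 at every time. The lists of changed genes served only to find members, and their fold changes and p-values were not used. Alternatives were other scalings, filters, tests and leaving out each array. Figures were drawn in Python 3.11.15 with matplotlib 3.10.9, numpy 2.4.6 and pandas 2.3.3.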

Additional observations from a re-analysis of the deposited data

Results flagged for a closer look

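A few members were called in opposite directions against 0 h at neighbouring times. The contrast between these times was called in limma too. Opposite calls in the same fit, with a shared SE, all but fix that call, so it adds no support of its own. Values are log2 changes, from 2 arrays per time. HSP70-like (GmaAffx.6593.1.S1_at) was lower at 12 h than at 6 h (log2 change -1.73, SE 0.18, adjusted p = 0.000349), with -1.10 at 12 h and 0.64 at 6 h against 0 h, and higher at 24 h than at 12 h by 1.79 (adjusted p = 0.000224). HSF4-like (GmaAffx.2051.1.S1_at) was lower at 12 h than at 6 h (log2 change -0.93, SE 0.14, adjusted p = 0.00217), with -0.42 at 12 h and 0.50 at 6 h against 0 h. The kinase with an Hsp20 segment (GmaAffx.15140.1.A1_at) was lower by the same comparison (-1.59, SE 0.22, adjusted p = 0.00132), having -0.72 at 12 h and 0.87 at 6 h. These 3, like the 17.9 kDa class II protein, were chosen by description from lists drawn on these arrays.

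From 12 to 24 h the sign against 0 h turned in 5 more probe sets, all lower at 12 h and higher at 24 h. The class II small heat shock protein (Gma.7766.1.S1_at) was higher at 24 h by 2.44 (SE 0.31, adjusted p = 0.000985), and HSP90-1 in Gma.17525.1.S1_x_at by 0.77 (SE 0.15, adjusted p = 0.00877). HSP23.9 was higher by 3.42 (adjusted p = 8.33e-05) in Gma.4089.1.S1_at, 3.82 (adjusted p = 0.000181) in Gma.4089.1.S1_s_at and 4.06 (adjusted p = 0.000567) in GmaAffx.91098.1.S1_s_at. In the last and in Gma.4089.1.S1_at 1 of the 2 arrays at 12 h lay under background.

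The 9 contrasts between neighbouring times held with any 1 array left out. The calls against 0 h held in this way on both sides only for HSP70-like at 12 and 24 h. Elsewhere 1 or both were lost on leaving out 1 array: the rises at 6 h of HSP70-like, HSF4-like and the kinase, the falls at 12 h of HSF4-like, the kinase, the class II protein and HSP90-1, and the rises at 24 h of HSP90-1 and HSP23.9. The falls of HSF4-like and HSP90-1 were also lost after centring and quantile normalization.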

How the results depend on the processing

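Of the 42 members, limma over all arrays called 1 at 0.5 h and 0 at 1 h. It called 15 at 3 h and 12 at 6 h. At 12 h it called 24, and at 24 h 19, then 9 from 1 to 3 h, 7 from 3 to 6 h, 30 from 6 to 12 h, 32 from 12 to 24 h and 1 over the time course. Each of the 24 named members was scored at 1 contrast, that of its largest called change against 0 h. None changed direction there under the alternatives run. The balance of higher to lower turned in some counts. At 24 h it was 9 to 10, against 13 to 7 after quantile normalization, 16 to 5 after centring, 11 to 10 with 16 added, 12 to 10 without either array of 12 h or without both of low spiked controls, 8 to 7 without 0 h replicate 1 and 4 to 2 without 0 h replicate 2. Among the 27 chosen by symbol it was 6 to 5, against 2 to 3 without 24 h replicate 2. Smaller counts turned at 0.5 h (1 to 0, against 0 to 1 without 0.5 h replicate 2), at 6 h (9 to 3, against 1 to 2 with the methods' test and among the 27), from 1 to 3 h (5 to 4, against 2 to 3 without 1 h replicate 1 and 0 to 2 among the 27) and from 3 to 6 h (3 to 4, against 2 to 1 without 3 h replicate 2 and 1 to 0 without 6 h replicate 2). Leaving out 1 array gave 0 to 2 at 0.5 h and 0 to 1 at 1 h, with 2 to 17 for 3 h, 3 to 14 for 6 h, 14 to 24 for 12 h and 6 to 22 for 24 h, then 3 to 12, 1 to 9, 23 to 30 and 23 to 31 in the 4 steps, and 0 to 2 over the time course. The t-test per probe set of the study's methods, with Benjamini-Hochberg adjustment, called 0 at 0.5, 3, 12 and 24 h (7, 17, 14 and 12 at an unadjusted p under 0.05), 3 at 6 h, 0 from 1 to 3, 3 to 6 and 12 to 24 h (8, 12 and 18 unadjusted) and 2 from 6 to 12 h. With Storey's q it called 0 at 0.5 h, 4 at 12 h, 10 at 24 h, and 5, 12, 17 and 0 in the 4 steps. With no filter on low values there were 0 at 0.5 h, 8 at 3 h, 4 from 3 to 6 h and 0 over the time course. The 27 members chosen by symbol gave 5, 3, 15 and 11 at 3, 6, 12 and 24 h, and 2, 2 and 19 in the first 3 steps. limma on the 4 arrays compared gave 0 at 0.5 h (3 unadjusted), 11 from 3 to 6 h and 15 from 12 to 24 h. Centring gave 4 at 0.5 h and 0 over the time course, quantile normalization 2 over the time course, 16 added before log2 gave 2 at 0.5 h and 3 over the time course, and an F test over the 7 times 5. Without both arrays of low spiked controls, an alternative chosen after seeing the data, there were 0 at 0.5 h, 14 from 1 to 3 h and 0 over the time course. With the replicate block, whose numbers were not taken to pair the samples, there were 15, 13, 22 and 18 at 3, 6, 12 and 24 h, 30 from 6 to 12 h, 30 from 12 to 24 h and 0 over the time course. Scored at 1 contrast each, the 24 named members kept their calls in 506 of 576 values and lost them in 70. Of these losses 23 were with the t-test and 11 with Storey's q. Over all calls of the 42 members, 2 of 15 at 3 h and 3 of 12 at 6 h held with any 1 array left out. At 12 h 14 of 24 held, and at 24 h 6 of 19. The symbol-only counts come from fewer members, and the cause of the other changes was not tested. Signals at or near background, as in HSF-08, HSF-30 and HSP22.5, limited what could be compared.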

Other observations

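Some other genes of protein folding were higher at 12 h than at 0 h, at a time when 21 of the 42 heat shock members were lower and 3 higher. Values are log2 changes from limma. Protein disulfide isomerases form and reshuffle disulfide bonds in the endoplasmic reticulum: of 7 tested by symbol, 3 were higher at 12 h than at 0 h and none lower, and 4 were lower at 24 h than at 12 h. Of 3 more found by description, 1 was higher at 12 h. The 2 probe sets of PDIL-2 called at 12 h were Gma.2350.1.S1_s_at (0.60, SE 0.14, adjusted p = 0.0214) and Gma.2350.1.S1_x_at (0.56, adjusted p = 0.0413), and that of PDIM-1 was GmaAffx.71811.1.S1_at (0.47, adjusted p = 0.14). Immunophilins are peptidyl-prolyl isomerases, and 3 of 6 found by description were higher at 12 h: CYP1 (0.68), CYP26 (0.55) and CYP10 (0.57), and none was lower. RAR1-1, which binds HSP90 and acts in disease resistance, was higher at 12 h than at 0 h by 0.76 (SE 0.17, adjusted p = 0.0178) in GmaAffx.81290.1.S1_at. Its other probe set, Gma.16745.1.S1_at, was not called at 12 h (-0.10) and was lower at 3 h (-0.68, adjusted p = 0.0484). The isomerases found by description, the immunophilins, and the ubiquitin and Clp probe sets found by word, came from the study's lists, which were drawn on these arrays. Over all probe sets tested, 7.95% were higher and 16.4% lower at 12 h than at 0 h. At 24 h against 12 h, 12.1% were higher and 19.8% lower. Single arrays were not left out for these probe sets.

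Ubiquitin marks proteins for degradation. Both probe sets found by that word in the study's lists were lower at 12 h than at 0 h, with changes of -0.92 in Gma.10933.3.S1_at and -1.02 in GmaAffx.90536.1.S1_s_at, and higher at 24 h than at 12 h, by 1.13 and 1.34. None of the 3 with a ubiquitin symbol was called at 12 h. The shares over all probe sets tested were 16.4% lower at 12 h against 0 h, and 12.1% higher at 24 h against 12 h. A probe set described as a Clp protein, GmaAffx.13837.1.S1_at, was lower at 0.5 h (-1.29), higher at 3 h (1.26) and 6 h (1.42) and lower at 12 h (-0.75).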
